A study of Homo sapiens with 13 samples.

Results

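The E2F factors, MYBL2 and FOXM1 are 10 transcription factor genes of the cell division programme, E2F1 to E2F8 with the MYB family member MYBL2 and the forkhead factor FOXM1. They were chosen by symbol, all 10 had an entry among the 22613 of each library, and all 10 were among the 15780 genes kept by a filter on low values (a mean of at least 0.5 FPKM). FPKM counts sequenced fragments relative to transcript length and to all mapped fragments of the library, so that levels of different genes can be set side by side. No member was listed at 0 in any library.

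Expression was measured by RNA sequencing of LNCaP-abl, a human prostate cancer line derived from LNCaP that grows without androgen, cultured throughout in medium with charcoal-stripped serum and harvested 72 h after transfection. The control library, siControl2, received control siRNA. Each of the 12 knockdown libraries received a siRNA pool against 1 factor: the forkhead factors FOXA1 or FOXM1, the Polycomb subunits EZH2 or EED, the genome-folding proteins CTCF or RAD21, the chromatin enzymes SMARCA4 or KDM1A, the DNA repair genes BRCA1 or BRCA2, or the noncoding RNAs MALAT1 or PCAT1. Each group was 1 library, so no value carries a replicate error, no test between conditions was possible, and neighbouring levels cannot be told apart from the spread between cultures, which was not measured. Read depth is unknown.

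Of the 11 siRNA targets with an entry, 8 were lower in their own library than in the other 12. BRCA1 was the 3rd lowest and BRCA2 the 9th lowest of 13 in their own libraries, though both were below the control there. BRCA1 was at 1.83 FPKM in siBRCA1 against 11.1 in the control, and BRCA2 at 1.23 in siBRCA2 against 3.25. MALAT1 was higher in its own library (21.7 FPKM) than in the control (16.4 FPKM), which goes against the label, so that library is called the library labelled siMALAT1. PCAT1 was not analysed here, and the siPCAT1 label has no check. Of 10 markers of prostate luminal epithelium, 8 were at or above 1 FPKM in every library. The others were KLK2, between 0.130 and 1.70 FPKM, and KLK3, which encodes prostate-specific antigen, between 0.0165 and 0.524 FPKM.

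E2F proteins bind DNA next to genes for DNA replication and cell cycle entry. E2F1, E2F2 and E2F3 pair with a DP partner and activate these genes once cyclin-dependent kinases have released them from the retinoblastoma protein. E2F4 and E2F5 mostly act in repressor complexes with the retinoblastoma relatives RBL1 and RBL2, E2F6 represses together with Polycomb proteins, and E2F7 and E2F8 repress without a DP partner. MYBL2, itself an E2F target, joins the MuvB core complex and is followed by FOXM1 in the activation of genes for mitosis.

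From the RefSeq promoter table (GRCh38.p14), 8 windows of 300 bases were searched for 7 of the members, among them 2 starts of E2F3. It gave no window for E2F8 and FOXM1. E2F5 was left out of the search and is not in the member counts below. The last 120 bases before the transcription start are shown for E2F1, E2F2, E2F7 and MYBL2, which were below the control in every knockdown, and for the upstream start of E2F3, E2F4 and E2F6, which were not. Capitals mark matches, on either strand, to the E2F motif (the word TTCCCGC, the word TTCGCGC, the word TTGCCGC or the word TTGGCGC, and the same words with G as the last base), to the cell cycle genes homology region or CHR (the word TTTGAA or the word TTCGAA), or to the CCAAT box (CCAAT).
E2F1 (chr20:33686386-33686505, minus strand): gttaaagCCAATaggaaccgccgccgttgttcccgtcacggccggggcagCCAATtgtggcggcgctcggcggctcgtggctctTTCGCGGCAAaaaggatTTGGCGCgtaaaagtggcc
E2F2 (chr1:23531234-23531353, minus strand): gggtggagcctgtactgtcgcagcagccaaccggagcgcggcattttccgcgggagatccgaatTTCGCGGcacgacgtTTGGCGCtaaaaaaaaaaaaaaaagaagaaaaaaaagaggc
E2F7 (chr12:77065570-77065689, minus strand): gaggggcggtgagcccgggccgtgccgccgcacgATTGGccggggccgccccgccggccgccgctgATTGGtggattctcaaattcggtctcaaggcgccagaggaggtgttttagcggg
MYBL2 (chr20:43666994-43667113, plus strand): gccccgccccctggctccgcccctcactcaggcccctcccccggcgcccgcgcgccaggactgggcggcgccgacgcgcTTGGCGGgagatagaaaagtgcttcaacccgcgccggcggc
E2F3 upstream start (chr6:20401759-20401878, plus strand): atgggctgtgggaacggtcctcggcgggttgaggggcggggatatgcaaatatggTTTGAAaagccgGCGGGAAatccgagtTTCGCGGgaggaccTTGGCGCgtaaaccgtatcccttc
E2F4 (chr16:67192035-67192154, plus strand): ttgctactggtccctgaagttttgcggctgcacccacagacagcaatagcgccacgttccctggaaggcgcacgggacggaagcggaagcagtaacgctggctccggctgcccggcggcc
E2F6 (chr2:11466162-11466281, minus strand): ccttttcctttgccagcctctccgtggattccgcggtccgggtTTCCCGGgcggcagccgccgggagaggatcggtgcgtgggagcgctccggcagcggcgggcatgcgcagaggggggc

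The E2F1, E2F2 and upstream E2F3 stretches each hold the word TTGGCGC close to the start, its first base at -19, -41 and -24. In E2F1 the words TTCGCGG at -36 and, on the other strand, TTGCCGC at -33 overlap. The MYBL2 stretch holds TTGGCGG at -41, which is a match only to the spellings ending in G. The E2F7 stretch holds 2 CCAAT boxes and no E2F motif, whose matches in that window lie further upstream, at -176 and -133. The E2F6 stretch holds TTCCCGG at -77, and its window also holds TTCCCGG at -182 and, after the start, TTCCCGC at 15. E2F motif matches were thus found on both sides of the division by expression. The E2F4 window and the downstream E2F3 window hold no match to any of these motifs. With the spellings ending in C, 5 of the 8 member windows hold the E2F motif, against 13% of all 35116 windows in the table. With those ending in G as well, which were added after the windows were read, 6 of 8 do, against 23.7%. The CCAAT box is in 3 of 8 member windows and in 34.6% of all windows, and the CHR is in 1, that of the upstream E2F3 start, and in 16.4% of all windows. A match is a run of letters and not evidence of binding. The expression tables give 1 value for E2F3 and do not separate its starts.

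**Figure D1:**
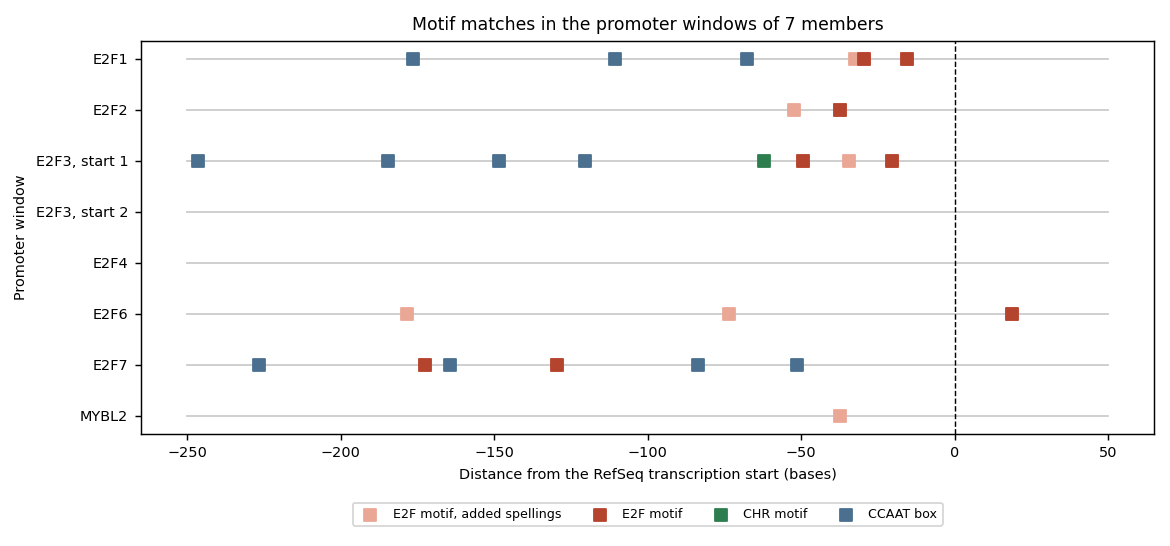
Matches to the E2F motif, the CHR and the CCAAT box in 8 RefSeq promoter windows of 7 members, by distance from the transcription start in bases (dashed line). E2F motif matches lie between -56 and the start in E2F1, E2F2, MYBL2 and the upstream start of E2F3, at -176 and -133 in E2F7 and at -182, -77 and 15 in E2F6, and the windows of E2F4 and of the downstream start of E2F3 hold none.

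The members fell into 6 that were highest in the control library and 4 that were not. E2F1, E2F2, E2F7, E2F8, MYBL2 and FOXM1 were below the control in all 12 knockdowns, as were 5.28% of the genes kept. E2F3, E2F4, E2F5 and E2F6 were at least 2-fold from the control in 0 knockdowns. That is the common state of a gene here: in siFOXA1, which had the largest shares, 4.22% of the genes kept were lower and 3.52% higher. The share that stayed within 2-fold in all 12 knockdowns was not counted. This grouping was made from the values themselves. In RNA from a whole culture, fewer cells that express a gene and less RNA per cell cannot be told apart.

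**Figure D2:**
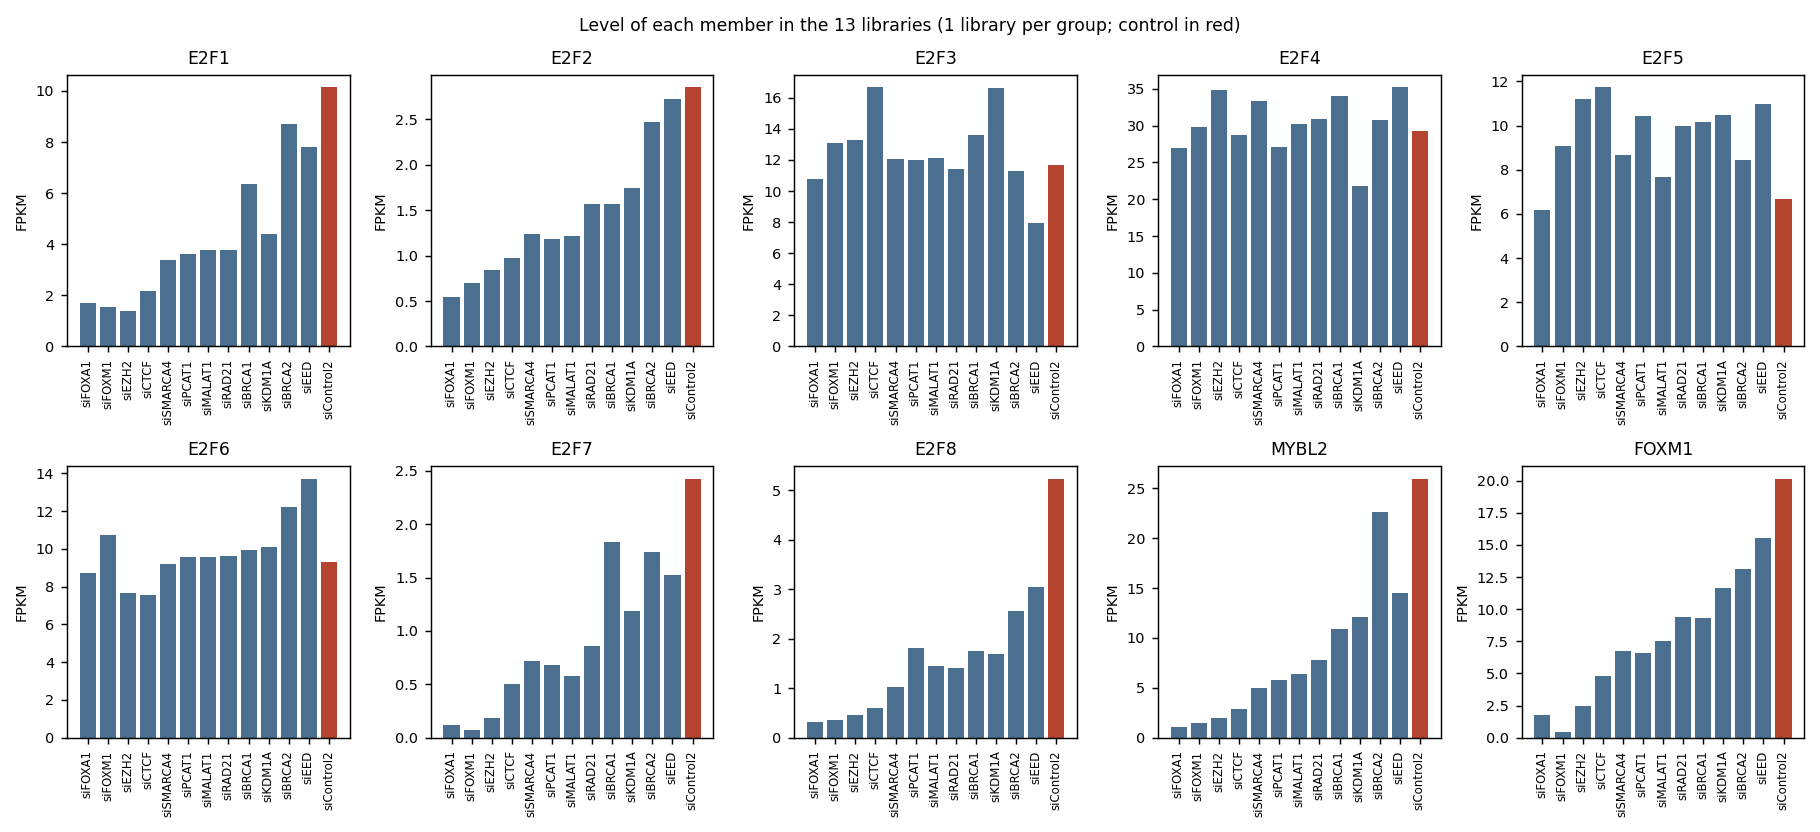
FPKM of the 10 members in the 13 libraries, 1 bar per library (control in red, axes starting at 0), with libraries ordered by their median rank over the 6 members that were highest in the control; siMALAT1 is the library labelled so. The order was set from E2F1, E2F2, E2F7, E2F8, MYBL2 and FOXM1, which therefore mostly climb from left to right, with some exchanges, and E2F3 to E2F6 do not follow it.

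Among the activators, E2F1 was at 10.1 FPKM in the control. It was at 8.71 FPKM in siBRCA2, 7.81 in siEED, 6.36 in siBRCA1, 4.397 in siKDM1A, 3.79 in siRAD21, 3.76 in the library labelled siMALAT1, 3.61 in siPCAT1 and 3.38 in siSMARCA4. The lowest levels were 2.18 FPKM in siCTCF, 1.72 in siFOXA1, 1.54 in siFOXM1 and 1.38 in siEZH2. Differences from the control were taken on the log2(FPKM + 1) scale, on which 1 is called 2-fold and changes of low genes are understated. E2F1 differed by -0.20 in siBRCA2 and by -2.23 in siEZH2 and was at least 2-fold lower in 9 of 12 knockdowns. Of the genes kept, 0.539% were 2-fold lower in 9 or more knockdowns. Of the members, E2F1, E2F8, MYBL2 and FOXM1 were, with siFOXM1 counted for FOXM1.

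E2F2 had lower levels and the same division of the libraries. The control was at 2.85 FPKM, with siEED at 2.72, siBRCA2 at 2.47, siKDM1A at 1.75, siBRCA1 at 1.57 and siRAD21 at 1.56. It was at 1.24 FPKM in siSMARCA4, 1.22 in the library labelled siMALAT1, 1.19 in siPCAT1, 0.975 in siCTCF, 0.839 in siEZH2, 0.703 in siFOXM1 and 0.541 in siFOXA1. The difference from the control was past 2-fold in siFOXA1 (-1.32), siFOXM1 (-1.18) and siEZH2 (-1.07), and it was -0.05 in siEED.

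E2F3, the most abundant activator in every library, did not follow them. Its lowest level was 7.93 FPKM in siEED, its median 12.04 and its highest 16.7 FPKM in siCTCF, with 16.6 in siKDM1A and 11.6 in the control. It was above the control in 8 knockdowns and below it in 4. The extremes were differences of 0.48 in siCTCF and -0.50 in siEED, both short of 2-fold. The ratio of E2F1 to E2F3, both as FPKM, was 0.870 in the control, 0.985 in siEED and 0.104 in siEZH2, so the makeup of the activator group differed between libraries more than its E2F3 level did.

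E2F4, which had the highest level of the 10 members in every library, varied least. It lay between 21.9 FPKM in siKDM1A and 35.2 FPKM in siEED, with 29.3 in the control, a range of 0.66 on the log2 scale. Over the genes kept, the median range was 0.82. The siKDM1A library was also the one with the largest ratio of E2F5 to E2F4, 0.480 against 0.227 in the control.

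E2F5 was the member most often above the control, while E2F3, E2F4 and E2F6 were above it in 8 knockdowns each. The control had 6.66 FPKM, and 11 of 12 knockdowns were higher, up to 11.7 FPKM in siCTCF (0.73), 11.2 in siEZH2 (0.67) and 10.96 in siEED (0.64). Only siFOXA1, at 6.19 FPKM, was lower (-0.09). None of these differences reached 2-fold, and all 12 are taken from the same control library. How many of the genes kept were above the control in 11 or more knockdowns was not counted.

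E2F6 ranged from 7.53 FPKM in siCTCF and 7.65 in siEZH2 to 12.2 in siBRCA2 and 13.7 in siEED, with 9.29 in the control. Its largest difference was 0.52, in siEED. Thus E2F4 and E2F6 were highest, and E2F3 lowest, in the library with siRNA against the PRC2 subunit EED, each by less than 2-fold from the control. EED itself was at 4.13 FPKM there against 8.94 in the control. On the log2(FPKM + 1) scale that is -0.95, also short of the call rule.

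The atypical repressors were the least abundant E2F genes in the lowest libraries. E2F7 was at 2.43 FPKM in the control, 1.83 in siBRCA1, 1.74 in siBRCA2, 1.52 in siEED, 1.19 in siKDM1A, 0.857 in siRAD21, 0.715 in siSMARCA4 and 0.683 in siPCAT1. Lower still were the library labelled siMALAT1 at 0.579 FPKM, with 0.503 in siCTCF, 0.185 in siEZH2, 0.124 in siFOXA1 and 0.0720 in siFOXM1. The last level is 33.7 times below the control as a ratio of FPKM, which is a difference of -1.68 on the log2(FPKM + 1) scale, and at such low levels the number of fragments behind a value is unknown. It was at least 2-fold lower in 6 knockdowns.

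E2F8 was set apart in the control more than the other members. The control was at 5.24 FPKM, and the nearest knockdown was siEED at 3.05, a gap of 0.62 on the log2 scale. It was at 2.56 FPKM in siBRCA2, 1.81 in siPCAT1, 1.76 in siBRCA1, 1.69 in siKDM1A, 1.45 in the library labelled siMALAT1, 1.41 in siRAD21 and 1.04 in siSMARCA4. The lowest were 0.600 FPKM in siCTCF, 0.453 in siEZH2, 0.364 in siFOXM1 and 0.317 in siFOXA1 (-2.24). E2F8 was at least 2-fold lower in 10 knockdowns, siBRCA2 (-0.81) and siEED (-0.62) being the exceptions.

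MYBL2 had one of the widest ranges of all genes: its SD over the 13 libraries, 1.19 on the log2 scale, was above that of 99.7% of the genes kept. The control was at 25.9 FPKM, siBRCA2 at 22.6, siEED at 14.5, siKDM1A at 12.1, siBRCA1 at 10.9, siRAD21 at 7.84 and the library labelled siMALAT1 at 6.34. It was at 5.81 FPKM in siPCAT1, 5.01 in siSMARCA4, 2.88 in siCTCF, 2.02 in siEZH2, 1.47 in siFOXM1 and 1.11 in siFOXA1. The differences ran from -0.19 in siBRCA2 to -3.68 in siFOXA1, and 10 of 12 were past 2-fold. Among the knockdowns alone, with no use of the control, the highest level was 20.4 times the lowest.

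FOXM1 was the target of 1 of the siRNA pools, and its level in siFOXM1, 0.474 FPKM against 20.1 in the control (-3.84), is a check of that label. Without direct targeting it was at 1.75 FPKM in siFOXA1 (-2.94), 2.47 in siEZH2 (-2.61) and 4.83 in siCTCF (-1.86). It was at 6.63 FPKM in siPCAT1, 6.73 in siSMARCA4, 7.56 in the library labelled siMALAT1, 9.32 in siBRCA1, 9.42 in siRAD21, 11.7 in siKDM1A, 13.1 in siBRCA2 and 15.6 in siEED. It was at least 2-fold lower in 9 knockdowns, its own included. The ratio of FOXM1 to MYBL2, both as FPKM, was 0.776 in the control and 0.323 in siFOXM1, and it lay between 0.581 in siBRCA2 and 1.67 in siCTCF in the other 11 knockdowns.

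**Figure D3:**
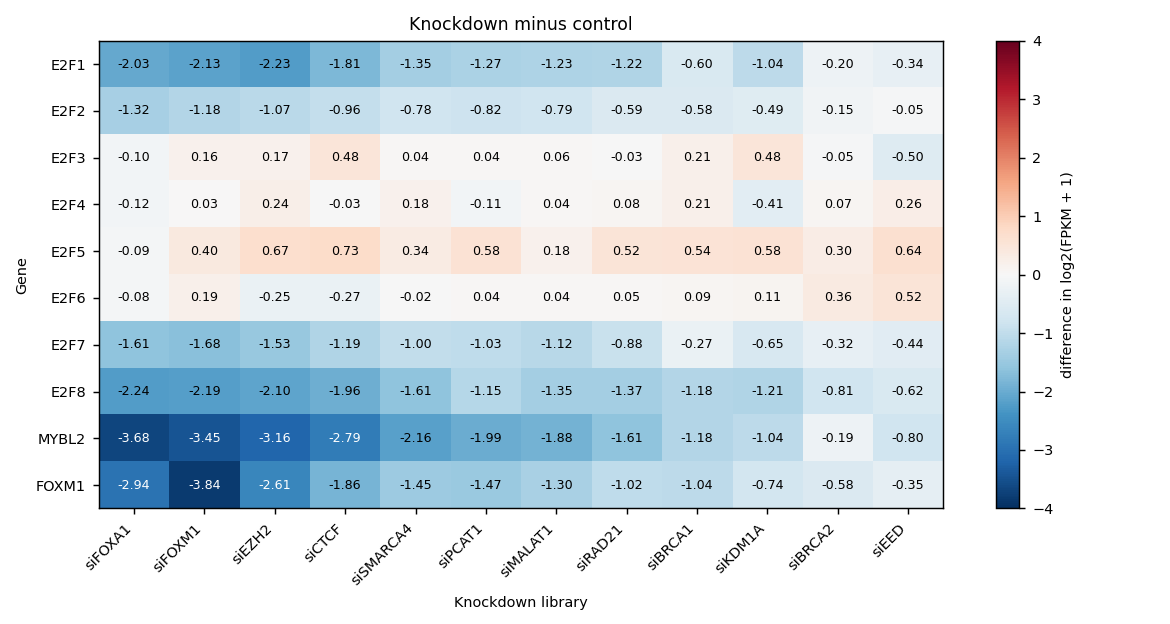
Difference of each member from the control in the 12 knockdown libraries, as log2(FPKM + 1), blue for lower and red for higher, 1 library per column; siMALAT1 is the library labelled so. MYBL2 and FOXM1 hold the largest differences, to -3.68 and -3.84, and E2F5 is above 0 in all but siFOXA1.

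The 4 libraries with the lowest levels were the same for all 6 members that were highest in the control, namely siFOXA1, siFOXM1, siEZH2 and siCTCF. FOXM1 was the siRNA target in siFOXM1, so its low place there was given in advance. How many of the genes kept share these 4 lowest libraries was not counted. Of the 4 libraries, siCTCF was the fourth lowest for each of the 6 members. The step to the fifth lowest library was 0.63 on the log2 scale for MYBL2, 0.46 for E2F1, 0.39 for FOXM1, 0.35 for E2F8, 0.15 for E2F2 and 0.07 for E2F7, so that the division was wide for MYBL2 and narrow for E2F7. The order within the 4 differed: siFOXA1 was lowest for E2F2, E2F8 and MYBL2, siFOXM1 for E2F7 and FOXM1, and siEZH2 for E2F1. siEED and siBRCA2 lay nearest the control, and siBRCA1 took that place for E2F7.

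The members were then counted against the background of the 15780 genes kept. In siFOXA1, 6 of 10 members were at least 2-fold lower, where 4.22% of the genes kept were lower and 3.52% higher. In siFOXM1, 6 of 10 were lower, its own target FOXM1 included, where 3.6% of genes were lower and 2.59% higher, and in siEZH2 6 of 10, where 3.09% were lower and 0.894% higher. These were the same 6 members, E2F1, E2F2, E2F7, E2F8, MYBL2 and FOXM1. In siCTCF, 5 of 10 were lower, all of these but E2F2, where 2.85% of genes were lower and 1.27% higher. E2F2 was just short of 2-fold there (-0.96), and it passed with a pseudocount of 0.1 (-1.46) or after centring on the median of all genes kept (-1.001), which made the count 6.

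The same 5 members were at least 2-fold lower in the library labelled siMALAT1, where 1.57% of genes were lower and 0.387% higher, and in siPCAT1, where 1.33% were lower and 0.323% higher. E2F1, E2F8, MYBL2 and FOXM1 were lower in siSMARCA4 and siRAD21. There, 1.97% and 1.88% of genes were lower and 0.494% and 0.906% higher. With a pseudocount of 0.1, E2F2 also passed 2-fold in the library labelled siMALAT1 (-1.16), siPCAT1 (-1.20) and siSMARCA4 (-1.14), and E2F7 in siSMARCA4 (-1.63) and siRAD21 (-1.40). In siKDM1A, 3 of 10 were lower (E2F1, E2F8 and MYBL2), where 1.55% of genes were lower and 0.754% higher. In siBRCA1, 3 of 10 were lower (E2F8, MYBL2 and FOXM1), where 0.944% of genes were lower and 0.45% higher.

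In siBRCA2 and siEED, 0 of 10 members were 2-fold lower, where 0.76% and 0.741% of genes were lower and 0.767% and 0.817% higher. In all 12 knockdowns 0 members were 2-fold higher. The median difference over the 10 members ran from -0.17 in siBRCA2 to -1.46 in siFOXA1. The median over all genes kept lay between 0.01 and 0.05. Because the deposited libraries already shared a distribution, that median could hardly lie far from 0, and it is no contrast to the members. All 12 comparisons share the 1 control library, in which these 6 members were at their highest. Against the median of the other 11 knockdowns, the members were 2-fold lower only in siEZH2 (3), siFOXA1 (2) and siFOXM1 (2, its own target FOXM1 included).

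**Figure D4:**
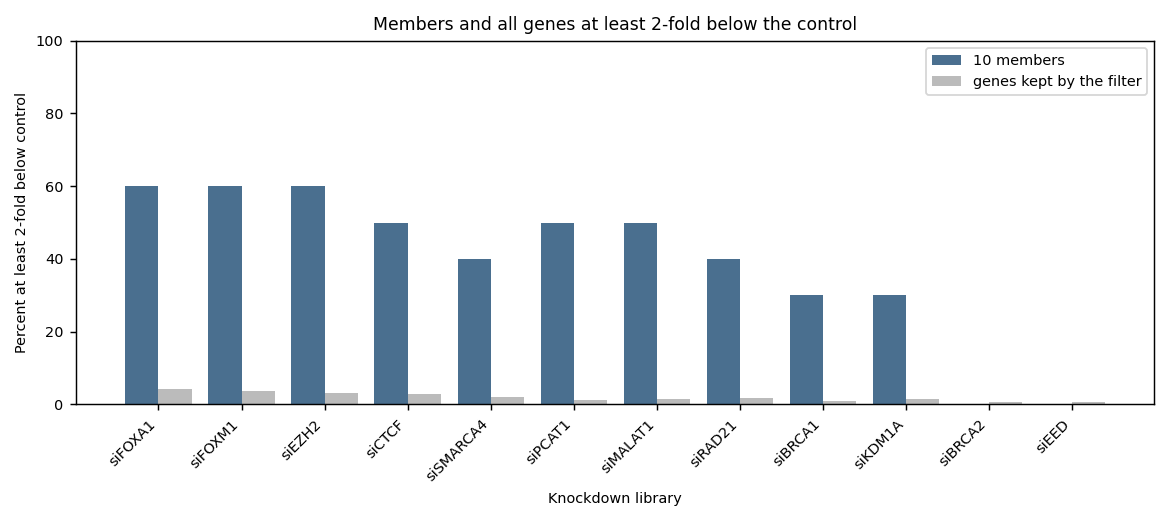
Percent of the 10 members (blue) and of the 15780 genes kept (grey) at least 2-fold below the control in each knockdown library, 1 library each; siMALAT1 is the library labelled so. Members reach 6 of 10 in siFOXA1, siFOXM1 and siEZH2 and 0 in siBRCA2 and siEED, and the grey bars do not pass 4.22%.

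Summed over the 8 E2F genes, the level was 77.5 FPKM in the control, 55.3 in siFOXA1, the lowest, and 82.9 in siEED, the highest. E2F4 and E2F5 together made up 46.4% of that sum in the control and 65.9% in siEZH2. The activators made up 31.8% in the control, 22.2% in siEZH2 and 33.4% in siKDM1A. E2F7 and E2F8 made up 9.88% in the control, 5.51% in siEED, 5.50% in siBRCA2 and 0.666% in siFOXM1. The siKDM1A library kept the control's share of E2F4 and E2F5 most closely, at 47.5%, with a lower E2F4 level and a higher E2F3 level.

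**Figure D5:**
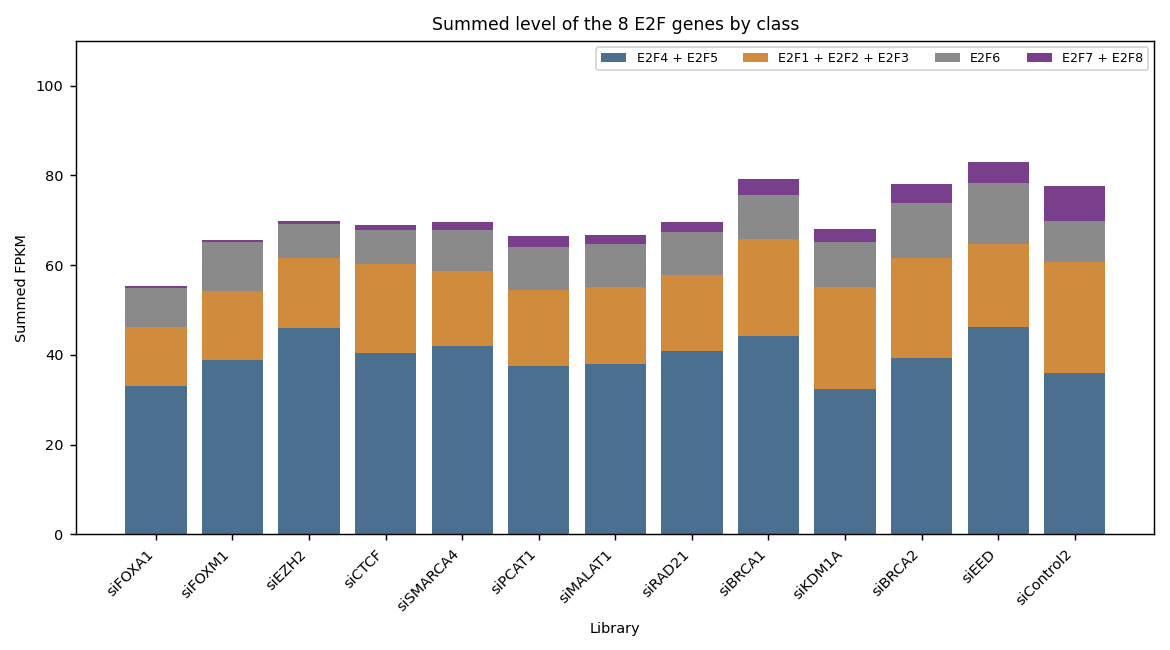
Summed FPKM of the 8 E2F genes in the 13 libraries, stacked by class, 1 library per bar; siMALAT1 is the library labelled so. The share of E2F7 and E2F8 is 9.88% in the control and 0.666% in siFOXM1, while E2F4 and E2F5 are the largest class in every library.

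Pairs of knockdowns were set against each other without the control. Between siFOXM1 and siFOXA1, 0 of 10 members were 2-fold apart, where 2.57% of genes were 2-fold lower in siFOXM1 and 3.03% higher. The largest difference was that of FOXM1 itself (-0.90), at 0.474 against 1.75 FPKM. As a ratio of FPKM this is 3.68 times lower in siFOXM1, and with a pseudocount of 0.1 FOXM1 passed 2-fold (-1.69), so the count of 0 rests on the added 1. E2F5 followed at 9.10 against 6.19 FPKM (0.49). Both libraries were low in the 6 members that were highest in the control, with MYBL2 at 1.47 and 1.11 FPKM.

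EZH2 and EED encode subunits of the same Polycomb complex, PRC2, and their libraries differed widely in these genes. In siEZH2, 6 of 10 members were at least 2-fold lower than in siEED, where 2.81% of genes were lower and 1.05% higher. MYBL2 was at 2.02 against 14.5 FPKM (-2.36), FOXM1 at 2.47 against 15.6 (-2.25), E2F1 at 1.38 against 7.81 (-1.89) and E2F8 at 0.453 against 3.05 (-1.48). E2F3 differed the other way, at 13.3 against 7.93 FPKM (0.68). The targets were not lowered equally, since EZH2 was at 2.20 FPKM in its own library against 16.4 in the control, and EED at 4.13 against 8.94. The part of this in the result was not tested.

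CTCF and the cohesin subunit RAD21 occupy many of the same sites in the genome. MYBL2, at 2.88 FPKM in siCTCF and 7.84 in siRAD21 (-1.19), was the 1 member 2-fold apart, where 1.79% of genes were lower in siCTCF and 1.84% higher. FOXM1 differed by -0.84, E2F1 and E2F8 by -0.59 each, and E2F3 by 0.51.

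The other genes of the pathway were taken from lists. Of 10 kept genes (11 listed) for dimer partners, pocket proteins and the MuvB core, between 0 and 3 were 2-fold lower and 0 higher in each knockdown. Over all genes kept, from 0.741% (siEED) to 4.22% (siFOXA1) were lower and from 0.323% (siPCAT1) to 3.52% (siFOXA1) higher. LIN9, a MuvB subunit, was at 6.78 FPKM in the control and 1.22 in siFOXM1 (-1.81) and was 2-fold lower in 5 knockdowns. RBL1 was at 5.09 FPKM in the control and 1.57 in siEZH2 (-1.24). The DP partner TFDP1, at 49.9 FPKM in the control, and the MuvB subunit LIN54 were 2-fold from it in 0 knockdowns.

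Of 10 kept G1 cyclins, kinases and inhibitors (13 listed), up to 3 were 2-fold lower in any knockdown. The shares over all genes kept ran from 0.741% to 4.22% lower and from 0.323% to 3.52% higher. CDK2 was 2-fold lower in 7 knockdowns, down to 4.59 FPKM in siEZH2 against 25.2 in the control (-2.23), and the cyclin CCNE2 in 6. The kinase inhibitor CDKN1A was the only gene of this list that was 2-fold higher, in 10 knockdowns, from 22.5 FPKM in the control to 440.0 in siCTCF (4.23). CDKN1A was at 25.0 FPKM in siPCAT1 and 36.1 in the library labelled siMALAT1, where 5 members were 2-fold lower, as in siCTCF. It was at 79.7 FPKM in siBRCA2 and 50.4 in siEED, where 0 members were 2-fold lower. A relation of CDKN1A to the members was not tested.

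Genes that these factors are known to control were counted against the same background. Of all genes kept, 0.76% were 2-fold lower in siBRCA2, 0.741% in siEED, 3.09% in siEZH2, 2.85% in siCTCF, 4.22% in siFOXA1 and 3.6% in siFOXM1. Of 24 G1/S genes with known E2F control, between 0 (siBRCA2 and siEED) and 22 (siEZH2) were 2-fold lower and 0 higher, with 20 in siCTCF, 20 in siFOXA1 and 21 in siFOXM1. The median difference over the list ran from -0.30 in siEED to -2.38 in siFOXA1. The helicase component CDC45, GINS2, MCM10 and the ribonucleotide reductase subunit RRM2 had the largest median differences over the knockdowns, -1.76, -1.76, -1.64 and -1.64. Of 25 G2/M genes with known MYBL2 or FOXM1 control, between 0 (siBRCA2 and siEED) and 25 (siEZH2) were 2-fold lower and 0 higher, and the median over the list ran from -0.29 in siEED to -3.15 in siFOXA1. The survivin gene BIRC5 (-1.64), the kinetochore gene CENPF (-1.62), the mitotic kinase PLK1 (-1.59) and topoisomerase TOP2A (-1.58) had the largest medians there.

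Of 11 kept partners of E2F6 in its Polycomb complex (12 listed), 1 was 2-fold lower in siSMARCA4 and 0 in the other knockdowns. That gene was CBX3, at 57.4 FPKM in siSMARCA4 and 134 in the control (-1.21). Over all genes kept, 1.97% were lower in siSMARCA4 and from 0.741% to 4.22% across the knockdowns. PCGF6, MGA and MAX had median differences of -0.29, 0.26 and 0.20. STAG3, a germline cohesin gene and the only kept gene of 4 listed that E2F6 is known to repress, lay between 1.04 FPKM in the control and 1.84 in siCTCF. Of the ubiquitin ligase subunits CCNF, SKP2 and FZR1, which act on cell cycle proteins, CCNF was 2-fold lower in siFOXA1 (2.63 against 7.996 FPKM) and SKP2 in siFOXM1 (2.59 against 9.03).

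For the 5 members whose SD over the 13 libraries was at least 0.5 on the log2 scale, genes with the most similar profile were found by the root mean square gap between profiles centred on their own means over the 13 libraries. The smallest gaps to E2F1 were those of KNTC1 (0.12), C11orf82 (0.12) and NEIL3 (0.12). Nearest to E2F7 were FBXO5 (0.09), CLSPN (0.10) and C4orf21 (0.11), and nearest to E2F8 were ESPL1 (0.12), INCENP (0.15) and RFC5 (0.15). MYBL2 was nearest to CENPW (0.17), BIRC5 (0.18) and CEP55 (0.20), and FOXM1 to PRC1 (0.26), ASF1B (0.26) and TK1 (0.26). Of the 15780 genes kept, FOXM1 was the 87th nearest to MYBL2 and MYBL2 the 55th nearest to FOXM1, with a gap of 0.40. These profiles include siFOXM1, where FOXM1 was the direct target, and without that library the gap was 0.35 and the places were 66 and 127, a setting chosen after the values were seen. With a pseudocount of 0.1, 0 of the 3 genes named for E2F7 and for MYBL2 were among the nearest 3, so these names are one choice among many close profiles.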

How the data were processed

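Per library, the authors deposited 1 table of log2 FPKM, for which the submitters' processing notes name TopHat, Cufflinks and hg19 without versions. The lowest deposited value is the log2 of 0.1, which was taken as an offset added to FPKM, though no label states it. Once sorted, the libraries differ by at most 0.0562 and so had been brought to a common distribution, also unlabelled. Depth is unknown and no counts were used.

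Values were turned back to FPKM, and differences were taken as log2(FPKM + 1). Genes with a mean of at least 0.5 FPKM were kept, and 759 small RNA entries were left out. A difference of at least 1 is called 2-fold. With 1 library per group nothing was tested, and differences describe these libraries. Calls and profile gaps were tested on simulated data (numpy 2.4.6, pandas 2.3.3). The planted changes were larger than the call rule, in genes well above the filter and with little noise. This does not cover calls near 2-fold or low members such as E2F2, E2F7 and E2F8. Members and gene lists were chosen with earlier results of these data known. Named are the 10 members, the siRNA targets used as label checks, the 3 nearest genes per member, and up to 4 genes per list with the largest median difference. The alternatives were another pseudocount, quantile normalization, centring, another reference, and no filter or small RNAs kept for the background. Promoter sequences are RefSeq's. No protein table was used here, so the planned protein comparison was not made.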

Additional observations from a re-analysis of the deposited data

How the results depend on the processing

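Quantile normalization could move little, since the deposited libraries already shared a distribution, and says nothing about stability. Centring made the count of members 2-fold lower 6 in siCTCF (E2F2 added), against 5, and 5 in siSMARCA4 (E2F7 added), against 4. With a pseudocount of 0.1 that count was 1 in siBRCA2 (E2F8), against 0, 6 in siCTCF, the library labelled siMALAT1 and siPCAT1, against 5 each, 6 in siSMARCA4, against 4, and 5 in siRAD21, against 4. It moved 20 of 120 member differences by over 1.5 times or across 2-fold. The median member difference became -1.75 in siCTCF, -2.22 in siEZH2, -2.35 in siFOXA1, -2.26 in siFOXM1, -1.28 in the library labelled siMALAT1, -1.33 in siPCAT1 and -1.35 in siSMARCA4. It put 1 member (FOXM1) 2-fold apart between siFOXM1 and siFOXA1 and 2 (MYBL2 and E2F8) between siCTCF and siRAD21. Of the 3 nearest genes it kept 1 for E2F1, 0 for E2F7, 1 for E2F8 and 0 for MYBL2, and leaving out the control library kept 1 each for E2F8 and MYBL2. Genes 2-fold from the control over all genes kept numbered 220 to 1221 per library, 624 to 2142 with a pseudocount of 0.1, 460 to 1482 with small RNAs kept, and 51 to 772 against the other knockdowns.

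Against the median of the other 11 knockdowns, 0 members were 2-fold lower in siBRCA1, siCTCF, siKDM1A, the library labelled siMALAT1, siPCAT1, siRAD21 and siSMARCA4. The count was 3 in siEZH2, 2 in siFOXA1 and 2 in siFOXM1, its own target FOXM1 included. In siBRCA2 and in siEED, 2 members each were 2-fold higher. The median member difference was then 0.20 in siBRCA1, 0.60 in siBRCA2, -0.25 in siCTCF, 0.66 in siEED, -0.42 in siEZH2, -0.62 in siFOXA1, -0.54 in siFOXM1, 0.27 in siKDM1A, 0.00016 in the library labelled siMALAT1, -0.031 in siPCAT1, 0.043 in siRAD21 and -0.093 in siSMARCA4. Of the 2-fold lower values, 14 changed sign: in siBRCA1 E2F8 (0.19), MYBL2 (0.80) and FOXM1 (0.42), in siKDM1A E2F1 (0.23), E2F8 (0.16) and MYBL2 (0.95), in the library labelled siMALAT1 E2F1 (0.047), E2F8 (0.023), MYBL2 (0.11) and FOXM1 (0.15), in siPCAT1 E2F8 (0.22), and in siRAD21 E2F1 (0.055), MYBL2 (0.38) and FOXM1 (0.43). Smaller differences also changed sign, such as those of E2F1 in siBRCA1 (-0.60 to 0.68) and MYBL2 in siEED (-0.80 to 1.19). Over all member differences, only 16 stayed the same under this reference. Another 90 moved, by the rule used for the pseudocount or in sign, and the 14 named above reversed. This reference leaves out the control library, where E2F1, E2F2, E2F7, E2F8, MYBL2 and FOXM1 were highest. No paired analysis was possible because each group has 1 library and the labels give no replicate numbers.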

Other observations

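Of the other MYB family genes, MYB did not follow MYBL2 in every library, and MYBL1 was below the control in every knockdown, as MYBL2 was. MYB was at 5.55 FPKM in the control, 18.1 in siRAD21 (1.54), 9.45 in siEED (0.67) and 1.64 in siFOXA1 (-1.31). In siRAD21, MYBL2 was at 7.84 against 25.9 FPKM (-1.61), so the pair stood on opposite sides of the control there. MYBL1 ran from 2.45 FPKM in the control to 0.146 in siFOXA1 and was 2-fold lower in 5 of 12 knockdowns. These values were picked out after they were seen, and each rests on 1 library.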
